A study of Mus musculus with 35 samples.

Results

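Surface receptor, adhesion and signaling genes that were lower after doxycycline in all 3 NUP98 fusion leukemias are described here. The set holds 10 genes of the 24454 mouse genes in the deposited expression table, found by their Entrez identifiers: Angpt1, Cd34, Muc13, Adgrg1, Gpr171, Cd28, Heg1, Tns1, Cnn3 and Bahcc1. All 10 passed the filter on low values that left 12687 features for testing. The genes were chosen for large doxycycline falls shared by the fusions in these same libraries, so the falls are given as descriptions, with no test: the members were selected on the measured change after doxycycline in each fusion. In the mean of the fusions their day 5 falls ranked between 2 (Muc13) and 124 (Gpr171) among the 12687 features. The name of the set holds for 7 of the 10 products. Tns1 and Cnn3 encode cytoskeletal proteins and Bahcc1 a nuclear chromatin protein, so these 3 are not surface molecules.

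The libraries came from bone marrow cells of transplanted C57BL/6 mice, sorted for GFP and CD45.2. The study tested which transcripts change when the fusion gene is switched off, and its title names the kinase gene CDK6 as a target of the fusions. The leukemias carried NUP98-DDX10, NUP98-JARID1A or NUP98-NSD1, a fusion gene that doxycycline turns off. For each fusion there were 3 libraries after 3 days of doxycycline at 4 mg/ml, 3 after 5 days of the same dose, and 4 from untreated mice, of which 1 is titled day 3 and 3 are titled day 5. A further 3 libraries are titled as controls of untreated mice; their genotype label lists 3 fusions with regulatable expression, and what these cells carried is not known from the labels. The promoter behind each fusion gene, the age of the mice, the number of primary leukemias behind a fusion and the cells that the recipient mice still had are not given in the labels. Nothing in the labels ties libraries to separate animals, so each p-value rests on the spread among libraries, which may be technical. The 2 chromatin immunoprecipitation samples are not analysed here.

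Angpt1 encodes angiopoietin 1, a secreted ligand of the receptor tyrosine kinase Tie2 (Tek) that is made in the bone marrow niche and by blood progenitors. CD34 is a sialomucin used to mark blood progenitors, and MUC13 is a transmembrane mucin of epithelia that is also present on some blood progenitors. ADGRG1 (GPR56) is an adhesion G protein-coupled receptor of blood stem cells, GPR171 is a G protein-coupled receptor related to the P2Y receptors, and CD28 is the costimulatory receptor known from T cells. HEG1 is a transmembrane protein that binds KRIT1 of the cerebral cavernous malformation complex and is best known in the endothelium of heart and vessels. Tensin 1 (Tns1) links integrins to actin at focal adhesions, calponin 3 (Cnn3) binds actin, and BAHCC1 reads a repressive histone mark through its BAH domain. NUP98 fusion proteins join the repeats of a nucleoporin to another protein, act on chromatin and keep blood progenitors from maturing.

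Reads in the table summed to between 12043519 and 28912315 per library. Between 0.0400% and 2.99% of the untreated level of its own fusion transcript was left in each doxycycline group. The fusion libraries had 13436 to 14023 features above 0 and the controls 14657 to 15127. Control replicate 3 stood apart from the other controls: its B cell marker sum was 85388 normalized counts, against 16148 and 18103 in replicates 1 and 2, and its erythroid marker sum was 66462, against 5910.3 and 8863. Its myeloid marker sum was 42296, against 129291 and 132080.4. Results that rest on it are also given without it for part of the genes. Comparisons of single fusions with the controls are given only with it. A normalized count is the number of reads of a gene divided by the size factor of its library, as the authors deposited it.

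After 5 days of doxycycline each of the 10 genes had every doxycycline library below every untreated library of its own fusion, in all 3 fusions. Of all 12687 features, 19.4% did so in NUP98-DDX10, 18.4% in NUP98-JARID1A, 19.7% in NUP98-NSD1 and 4.39% in all 3; since this contrast chose the genes, nothing is read from their count. The share of the untreated mean left at day 5 ran from 3.77% to 34.7% in NUP98-DDX10 (median 20.7%), from 1.28% to 25.6% in NUP98-JARID1A (median 7.80%) and from 0.219% to 47.5% in NUP98-NSD1 (median 20.01%). At day 3 all 10 genes had separate ranges in NUP98-DDX10 (background 11.9%), 9 in NUP98-JARID1A (13.6%) and 7 in NUP98-NSD1 (17.6%). Genes that overlapped at day 3 were Gpr171 in NUP98-JARID1A, and Gpr171, Cd34 and Cd28 in NUP98-NSD1. In bulk RNA, fewer cells of a type and less RNA per cell cannot be told apart.

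**Figure D1:**
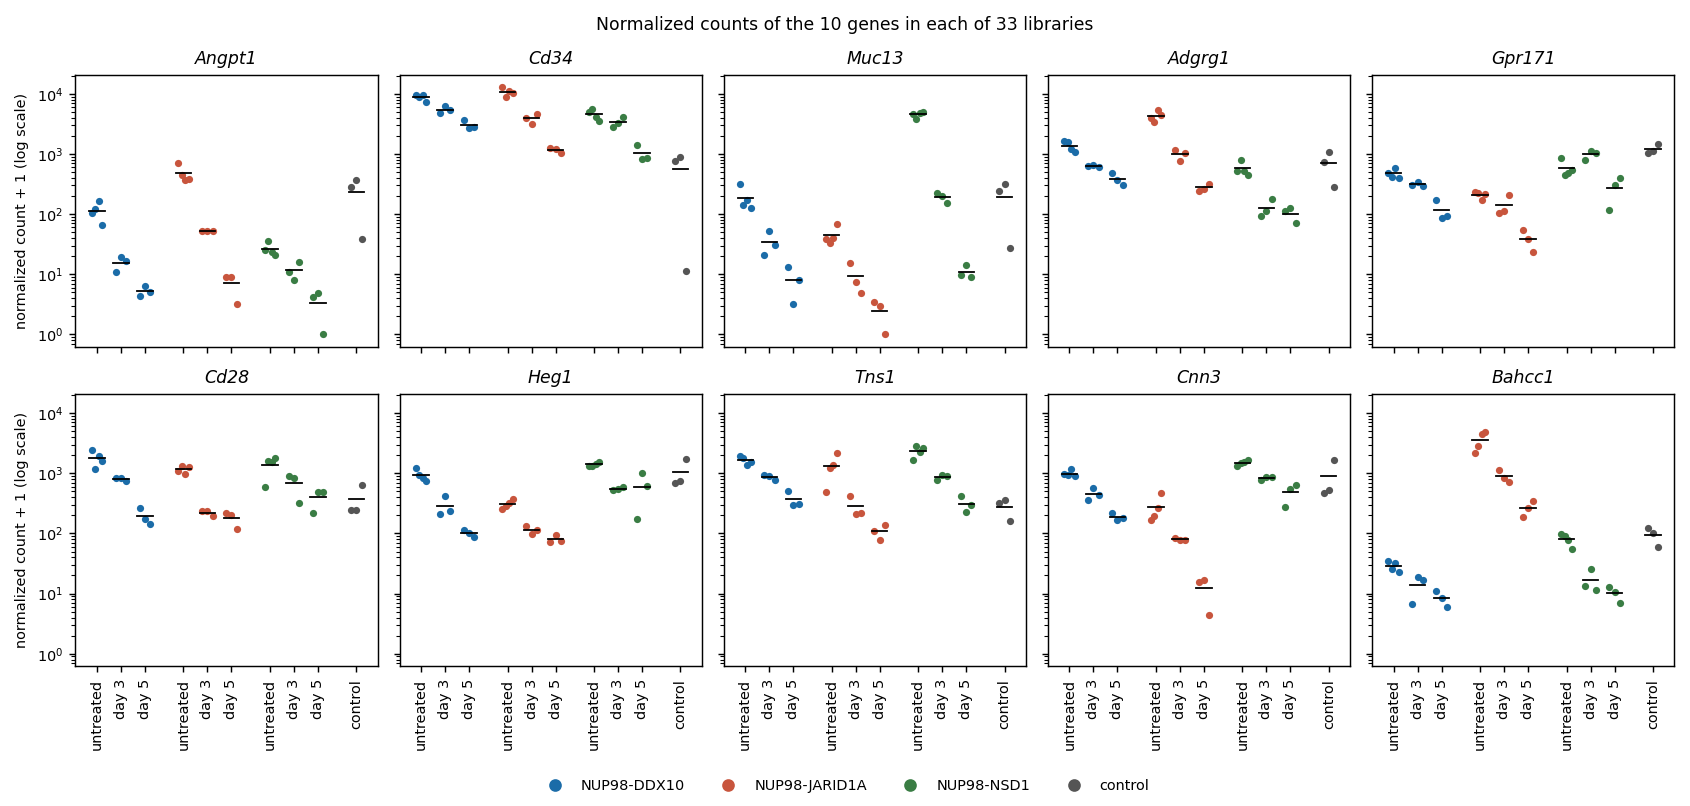
Normalized counts plus 1 (y axis, log scale) of the 10 genes, with 1 point per library and a black bar at the group mean; each fusion is shown untreated (4 libraries), at day 3 and at day 5 of doxycycline (3 libraries each), followed by the 3 controls. At day 5 every doxycycline point lies below every untreated point of its fusion, and Muc13 and Bahcc1 start from untreated means that differ by 103 and 128 times between fusions.

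The ligand gene Angpt1 (GRCm38 chromosome 15, 42424667 to 42676977) was highest in untreated NUP98-JARID1A, with 707, 442, 366 and 377 normalized counts, and had 51.9, 51.04 and 52.3 at day 3 and 7.903, 8.04 and 2.23 at day 5. In NUP98-DDX10 it had 102, 119, 162 and 65.3 untreated, 10.1, 18.1 and 15.6 at day 3 and 3.29, 5.38 and 4.01 at day 5. In NUP98-NSD1 the untreated libraries held only 24.8, 34.7, 22.3 and 20.05, those of day 3 9.95, 7.17 and 15.1 and those of day 5 3.23, 3.81 and 0. All 3 fusions ended at 8.04 or less at day 5, although the untreated ranges did not overlap. The library at 0 allows up to 2.95 normalized counts, the value of 3 reads. On the scale of log2(normalized count + 1), used for all log2 values here with ± as standard error, the day 5 change of Angpt1 was -6.16 ± 0.55 with NUP98-JARID1A, -4.38 ± 0.55 with NUP98-DDX10 and -3.25 ± 0.55 with NUP98-NSD1. This scale understates the change of a gene with few reads, and adding 5 in place of 1 moved the NUP98-NSD1 value to -2.07 and the NUP98-DDX10 value to -3.60. The 3 controls had 279, 370.3 and 37.6 normalized counts. Tek, the gene of the Tie2 receptor, reached at most 1.12 normalized counts in any of the 30 fusion libraries.

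The progenitor sialomucin gene Cd34 (chromosome 1, 194938821 to 194961292) had the highest values of the set in untreated NUP98-DDX10 and NUP98-JARID1A. Untreated NUP98-DDX10 libraries had 9418, 8889, 9435 and 7225 normalized counts, those of day 3 4781, 6284 and 5346 and those of day 5 3616, 2653 and 2837. In NUP98-JARID1A the values were 13034, 9016, 11267 and 10197 untreated, 3923, 3149 and 4642 at day 3 and 1278, 1203 and 1026 at day 5. In NUP98-NSD1 they were 5026, 5622, 4113 and 3542 untreated, 2836, 3312 and 4068 at day 3 and 1415, 821 and 862 at day 5. The day 3 libraries of NUP98-NSD1 overlapped the untreated ones, while in the other 2 fusions they lay below them. The day 5 change was -1.53 ± 0.76, -3.21 ± 0.76 and -2.17 ± 0.76 in NUP98-DDX10, NUP98-JARID1A and NUP98-NSD1. The fit takes 1 spread per gene over all groups, and that of Cd34 was the largest of the 10. The controls had 770.02, 906 and 10.4, with replicate 3 far below the other 2. They enter the spread behind the standard errors above, which are thus not those of the fusion libraries alone. A long noncoding gene on the other strand (Gm16897) shares 148 exon bases with Cd34, and the sources used here do not say if counting used strand; it reached at most 14.2 normalized counts in any library. RefSeq also lists noncoding genes on the other strand that share exon bases with Muc13 (147 bases), Bahcc1 (86) and Adgrg1 (6), which are not analysed here.

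Muc13 (chromosome 16, 33794037 to 33819929), the transmembrane mucin gene, had the largest mean fall of the 10 and an untreated level that spanned 103 times between fusions. Untreated NUP98-NSD1 libraries had 4544, 3877, 4776 and 4979.7 normalized counts, those of day 3 227, 199.96 and 149.6 and those of day 5 8.61, 13.3 and 7.87. NUP98-DDX10 had 311, 141, 173 and 126 untreated, 20.1, 52.04 and 29.1 at day 3 and 12.1, 2.15 and 7.01 at day 5. NUP98-JARID1A had 37.4, 31.6, 39.7 and 67.7 untreated, 14.5, 6.496 and 3.87 at day 3 and 2.43, 2.01 and 0 at day 5. No doxycycline library of day 3 or day 5 reached an untreated library of its own fusion. In NUP98-NSD1 4.23% of the untreated mean was left at day 3 and 0.219% at day 5, a change of -8.73 ± 0.60. The day 5 change was -4.68 ± 0.60 in NUP98-DDX10 and -4.31 ± 0.60 in NUP98-JARID1A, where 1 library was at 0 (3 reads would be 3.34 normalized counts) and adding 5 in place of 1 gave -2.89. The controls had 242, 315 and 25.96.

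Adgrg1 (chromosome 8, 94974756 to 95014208), the adhesion receptor gene, was highest in untreated NUP98-JARID1A, at 4300.4 ± 840.04 normalized counts (SD, n = 4), with 995 ± 219 at day 3 and 276 ± 39.6 at day 5 (n = 3 each). NUP98-DDX10 had 1377 ± 275 untreated, 629.9 ± 24.95 at day 3 and 385 ± 90.4 at day 5. NUP98-NSD1 had 577 ± 157 untreated, 126 ± 43.2 at day 3 and 101 ± 28.5 at day 5, so that most of its fall was present at day 3. At day 5 6.43% of the untreated mean was left in NUP98-JARID1A, 17.5% in NUP98-NSD1 and 27.9% in NUP98-DDX10.

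Gpr171 (chromosome 3, 59096448 to 59101821), the P2Y-related receptor gene, had the latest fall. In NUP98-NSD1 it had 848, 438, 484 and 546 normalized counts untreated, 792, 1132 and 1038 at day 3 and 116, 304 and 405 at day 5. In NUP98-DDX10 it had 490.1, 419.8, 594 and 403 untreated, 307, 342 and 292 at day 3 and 173, 86.1 and 92.1 at day 5. In NUP98-JARID1A it had 232, 222, 170.1 and 218 untreated, 104, 110.4 and 210.2 at day 3 and 53.5, 38.2 and 22.3 at day 5. The NUP98-NSD1 mean at day 3 was thus 170.4% of the untreated mean (0.80 ± 0.33), with overlapping ranges, while that of NUP98-DDX10 was 65.8% and that of NUP98-JARID1A 67.2%. At day 5 all 3 were lower, and without NUP98-NSD1 day 5 replicate 1 the NUP98-NSD1 change was -0.67 in place of -1.20 ± 0.33. Controls had the highest level of any group, at 1046, 1126 and 1481. The gene lies inside the span of Med12l, on the other strand, with which it shares no exon base.

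Cd28 (chromosome 1, 60746388 to 60773359), the costimulatory receptor gene, had similar untreated levels in the 3 fusions. They were 1791 ± 542 normalized counts for NUP98-DDX10, 1167 ± 163 for NUP98-JARID1A and 1387 ± 542 for NUP98-NSD1 (SD, n = 4 each). At day 5 they were 194 ± 63.4, 179.7 ± 54.6 and 400.1 ± 160.1 in the same order (n = 3 each). The NUP98-JARID1A libraries overlapped their day 5 range already at day 3 (235, 233 and 191), whereas in NUP98-DDX10 the day 3 values (820.1, 819.97 and 746) lay between the untreated and day 5 ranges. In NUP98-NSD1 the day 3 libraries (909, 834 and 322) overlapped the untreated ones, whose title day 3 library (594) was the lowest. Of 9 T cell markers, 5 stayed under 10 normalized counts in every fusion library, among them Cd3e (at most 1.903) and Cd3g (at most 1.16). The sum of the 9 markers was highest in untreated NUP98-JARID1A, at 128 to 245.

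Heg1 (chromosome 16, 33684384 to 33771576), the transmembrane partner of KRIT1, had 1220.1, 922, 838 and 733 normalized counts in untreated NUP98-DDX10, 208, 416 and 233 at day 3 and 115, 98.96 and 86.1 at day 5. NUP98-JARID1A had 253, 284, 326 and 379 untreated, 134, 96.5 and 112 at day 3 and 71.7, 92.4 and 74.6 at day 5. NUP98-NSD1 had 1306, 1341, 1424 and 1554 untreated, 525, 544 and 592 at day 3 and 175, 1023 and 608 at day 5. In NUP98-NSD1 the 3 libraries of day 5 spread over a wider range than those of day 3, with replicate 1 below the day 3 range and replicates 2 and 3 above it. Without replicate 1 the day 5 change was -0.83, against -1.55 ± 0.36 with it and -2.10 without replicate 2. The change was -3.18 ± 0.36 in NUP98-DDX10 and -1.94 ± 0.36 in NUP98-JARID1A.

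The cytoskeletal genes Tns1 (chromosome 1, 73910232 to 74124548) and Cnn3 (chromosome 3, 121426541 to 121458205) came next. Tns1 had 2359.7 ± 524, 1666 ± 262 and 1313 ± 701 normalized counts in untreated NUP98-NSD1, NUP98-DDX10 and NUP98-JARID1A (SD, n = 4 each), and the lowest of the NUP98-JARID1A libraries, at 487, was its title day 3 library. At day 5 13.2%, 22.4% and 8.17% of these means was left. Cnn3 had 1508 ± 134, 986 ± 118 and 274 ± 140.3 in the same order, and 31.97%, 18.9% and 4.14% was left at day 5. The Cnn3 libraries of NUP98-JARID1A at day 5 held 14.6, 16.1 and 3.34, far below the 3 of NUP98-NSD1 (279, 538 and 629.7). Without NUP98-JARID1A day 5 replicate 3 the change there was -3.95 in place of -4.59 ± 0.39. Rufy4, on the other strand, shares 116 exon bases with Tns1 and reached at most 76.6 normalized counts.

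Bahcc1 (chromosome 11, 120232870 to 120292297), the chromatin gene, had its high levels in NUP98-JARID1A. Untreated libraries had 2158, 2836, 4446 and 4796 normalized counts in NUP98-JARID1A, 33.7, 24.4, 31.1 and 21.8 in NUP98-DDX10 and 97.5, 88.2, 75.9 and 55.1 in NUP98-NSD1. At day 3 they had 1119, 833 and 708, 5.59, 18.1 and 15.6 and 12.4, 25.1 and 10.7 in the same order. At day 5 they had 184, 260.2 and 349.8, 9.88, 7.53 and 5.01 and 11.8, 9.52 and 5.903. NUP98-JARID1A libraries at day 5 still lay above every untreated library of the other fusions. The Bahcc1 change at day 5 was -3.72 ± 0.36 with NUP98-JARID1A, -3.01 ± 0.36 with NUP98-NSD1 and -1.78 ± 0.36 with NUP98-DDX10.

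By time, a median of 50.1% of the day 5 log2 fall of the 10 genes was present at day 3 of NUP98-DDX10, 53.1% at day 3 of NUP98-JARID1A and 50.9% at day 3 of NUP98-NSD1. In the mean of the fusions Heg1 (67.5%), Adgrg1 (65.4%) and Bahcc1 (63.4%) had the largest shares at day 3. Cnn3 (42.1%), Cd34 (37.3%) and Gpr171 (7.32%) had the smallest. The shares differed between fusions within a gene: Cd28 had 35.0% in NUP98-DDX10 and 87.8% in NUP98-JARID1A, and Angpt1 had 64.4% in NUP98-DDX10 and 36.9% in NUP98-NSD1. Muc13 had 52.4%, 55.4% and 52.4% in NUP98-DDX10, NUP98-JARID1A and NUP98-NSD1. Muc13 and Angpt1 had few reads at day 5, so their shares depend on the number added before the log. Adding 5 in place of 1 gave Muc13 a day 5 change of -2.89 in place of -4.31 in NUP98-JARID1A. The further change between day 3 and day 5 ran from -0.72 ± 0.22 (Heg1) to -2.77 ± 0.37 (Muc13) in the mean of the fusions, with a median over the 10 genes of -1.41.

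**Figure D2:**
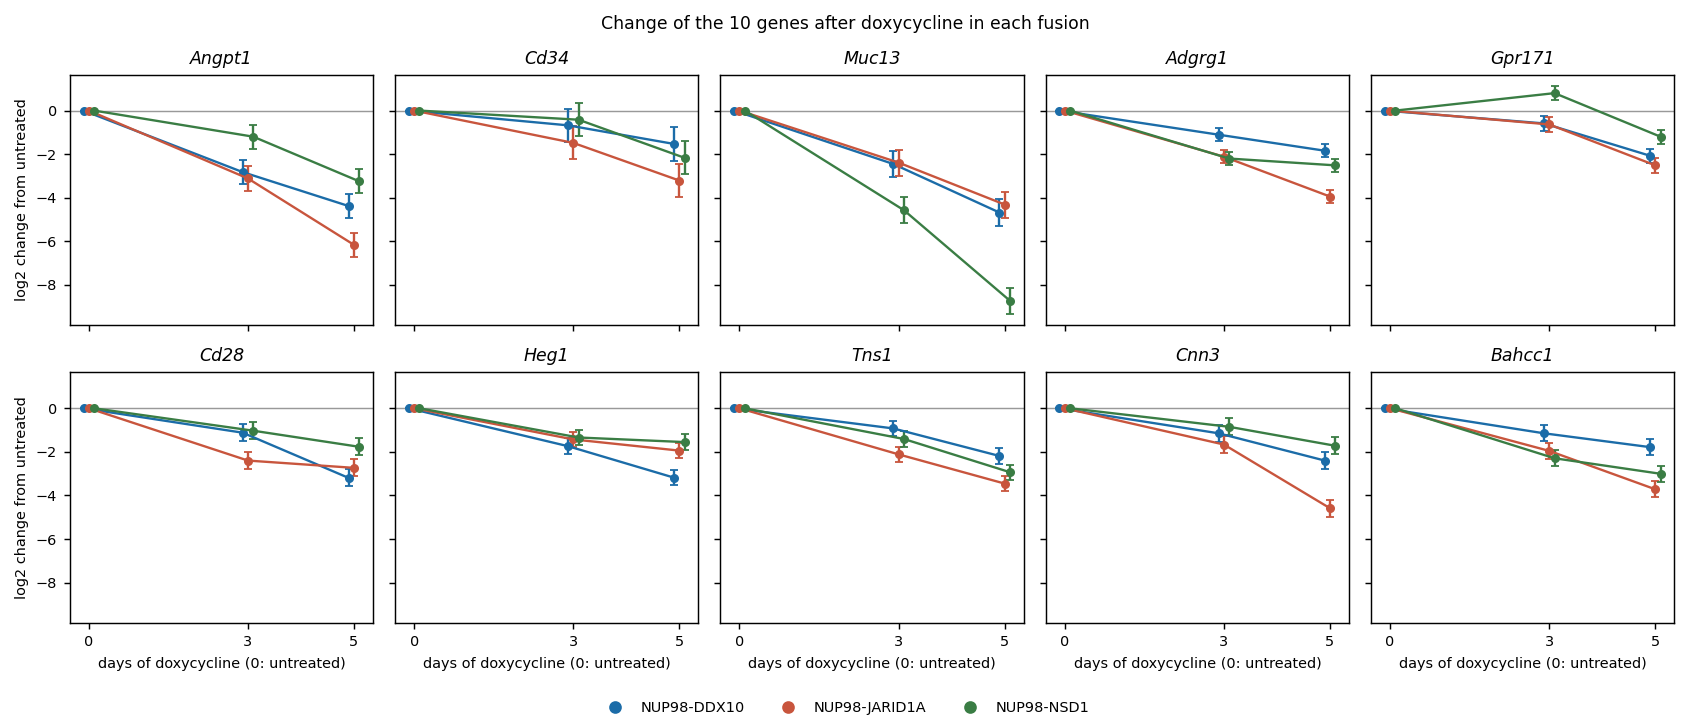
Log2 change from untreated (y axis) by days of doxycycline (x axis, 0 for untreated) for the 10 genes; points are fitted values from 4 untreated and 3 doxycycline libraries a fusion, and bars are standard errors. The NUP98-NSD1 line of Muc13 runs down to -8.73, and that of Gpr171 is above 0 at day 3.

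Untreated levels were compared between the fusions with an F-test over the 3 untreated groups in limma. These libraries also entered the choice of the genes, but the difference between fusions did not. The test passed at an adjusted p under 0.05 for 8 of 10 genes, near the 69.8% of all features. Bahcc1 (adjusted p = 9.27e-16), Muc13 (1.66e-10), Adgrg1 (6.96e-09) and Angpt1 (4.99e-07) had the smallest values. The highest untreated mean was 128 times the lowest for Bahcc1, 103 times for Muc13, 18.6 times for Angpt1 and 7.45 times for Adgrg1. Cd28 (0.306, 1.53 times) and Cd34 (0.234, 2.38 times) did not pass. Without control replicate 3, which enters this test only through the shared spread, Cd34 passed at 6.05e-07. Tns1 passed at 0.0264 but not when single untreated libraries were left out (the title day 3 library of NUP98-JARID1A, or NUP98-NSD1 replicate 1 or 3), at 0.0636 to 0.121.

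The order of the fusions was not the same for all genes. Muc13, Heg1, Tns1, Cnn3 and Gpr171 were highest in NUP98-NSD1 and lowest in NUP98-JARID1A. Pairwise, untreated NUP98-NSD1 exceeded NUP98-JARID1A in all 5, by 6.71 ± 0.55 for Muc13 (adjusted p = 6.61e-11), 2.58 ± 0.36 for Cnn3 (1.13e-06), 2.19 ± 0.33 for Heg1 (3.26e-06), 1.42 ± 0.31 for Gpr171 (0.000287) and 1.005 ± 0.33 for Tns1 (0.01). Of these 5, only Muc13 also differed between NUP98-NSD1 and NUP98-DDX10 (4.68 ± 0.55, adjusted p = 1.46e-07); for Cnn3, Heg1, Gpr171 and Tns1 those neighbours in the order did not pass. Angpt1 and Adgrg1 ran the other way, highest in NUP98-JARID1A and lowest in NUP98-NSD1, and all of their pairwise differences passed. Bahcc1 was highest in NUP98-JARID1A as well, with NUP98-NSD1 above NUP98-DDX10 by 1.47 ± 0.33 (adjusted p = 0.000921). Between NUP98-NSD1 and NUP98-DDX10, 4 of 10 genes differed (41.9% of all features), and between NUP98-JARID1A and NUP98-DDX10, 7 of 10 did (41.7%). In the pair of NUP98-NSD1 and NUP98-JARID1A, 5 of 10 genes were higher and 3 lower in NUP98-NSD1, where 29.3% and 29.3% of all features were.

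Levels of different genes were set side by side as normalized counts per kilobase of exon. The labels name a Lexogen poly-A kit, and whether its reads cover whole transcripts is not stated, so the scale may be uneven between genes. Cd34 was first in each untreated group, with 4151 per kilobase for NUP98-JARID1A, 3335 for NUP98-DDX10 and 1746 for NUP98-NSD1. In NUP98-NSD1 Muc13 was next, at 1529.5, followed by Cnn3 at 753. In NUP98-JARID1A Adgrg1 (488) and Bahcc1 (301) followed Cd34, and in NUP98-DDX10 Cnn3 (492) and Cd28 (415) did. The lowest were Bahcc1 in NUP98-DDX10 (2.35), Muc13 in NUP98-JARID1A (14.8) and Angpt1 in NUP98-NSD1 (5.78).

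Whether the size of the doxycycline effect differed between fusions was tested with an interaction F-test in limma built from the same doxycycline contrasts that chose the genes, so the background shares are printed beside the counts, nothing is read from the counts, and each p describes these libraries only. At day 3, 0 of 10 genes passed (background 7.08%), while 5 had an unadjusted p under 0.05. The tool edgeR called 0 and DESeq2 called 1 (Gpr171), and their shares of all features are not given here. Gpr171 had the smallest adjusted p, 0.0715. Without control replicate 3, 5 of 10 genes passed at day 3 (Muc13, Angpt1, Adgrg1, Cd34 and Gpr171, at adjusted p from 0.0117 to 0.044). Of all features, 1856 passed in that fit, against 898 with the replicate kept. At day 5, 6 of 10 passed (background 26.0%): Muc13 (adjusted p = 0.000415), Cnn3 (0.000894), Adgrg1 (0.00209), Bahcc1 (0.0167), Angpt1 (0.0194) and Heg1 (0.0381). Muc13 fell by 4.05 log2 units more at day 5 of NUP98-NSD1 than of NUP98-DDX10 (SE 0.84, adjusted p = 0.00259), and its NUP98-NSD1 minus NUP98-JARID1A difference was -4.41 ± 0.84 (0.000752). The NUP98-JARID1A effect was larger than that of NUP98-DDX10 for Cnn3 (-2.19 ± 0.56, adjusted p = 0.0055), Adgrg1 (-2.10 ± 0.43, 0.000969) and Bahcc1 (-1.93 ± 0.51, 0.00721). Between NUP98-NSD1 and NUP98-JARID1A the smaller effect was that of NUP98-NSD1 for Angpt1 (2.91 ± 0.78, 0.0142), Cnn3 (2.87 ± 0.56, 0.000876) and Adgrg1 (1.43 ± 0.43, 0.0303). For Heg1 the effect in NUP98-NSD1 was smaller than that in NUP98-DDX10 (1.63 ± 0.51, 0.0427). In the 9 libraries of day 5, Muc13 had 0 to 14 reads and Angpt1 0 to 13. Group means at day 5 were 1.48 to 9.93 normalized counts for Muc13 and 2.35 to 6.06 for Angpt1. For both genes the fusions ranked by fall as they did by untreated mean. The effect differences of these genes are therefore not separate from their untreated levels.

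The Heg1, Angpt1 and Bahcc1 calls at day 5 were not stable to single libraries, and those of Muc13, Cnn3 and Adgrg1 were under every alternative run. All reruns used libraries that chose the genes, so they show only how the calls depend on single libraries and settings. Heg1 lost its call (adjusted p from 0.051 to 0.0995) when any day 5 library of NUP98-DDX10 was left out, or its untreated day 3 library or untreated replicate 1, or replicate 2 of NUP98-JARID1A at day 5. It did so too without replicate 2 or 3 of NUP98-NSD1 at day 5, or that fusion's untreated day 3 library or untreated replicate 1 or 2. It was also not called with no filter on low values (0.0529). Angpt1 was not called when replicate 3 of NUP98-JARID1A at day 5 (0.0801) or replicate 2 of NUP98-NSD1 at day 5 (0.0545) was dropped, or with quantile normalization (0.059), nor was Bahcc1 without replicate 1 of NUP98-DDX10 at day 5 (0.0605). By edgeR 4 of the 10 genes passed, without Angpt1 (0.191) and Bahcc1 (0.0831). By DESeq2 8 passed, with Gpr171 (0.038) and Tns1 (0.0445) added. The shares of all features called by these 2 tools are not given here, so nothing is read from their counts. With only the untreated libraries titled day 5 kept, Heg1 (0.145) and Angpt1 (0.0789) did not pass and Tns1 did (0.0165). Of the genes not called, Cd34 (adjusted p = 0.456) passed without control replicate 3, at 5.01e-05. Gpr171 (0.0865) passed when replicate 1 of NUP98-NSD1 at day 5 (0.00433), replicate 1 of NUP98-JARID1A at day 5 (0.0325) or the NUP98-NSD1 library titled untreated day 3 (0.0472) was dropped. Cd28 (0.12) passed when the first of these was dropped (0.0375), and Tns1 (0.136) when the NUP98-JARID1A library titled untreated day 3 was (0.015).

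The controls held the NUP98-JARID1A transcript at 2.52 to 72.00 normalized counts (mean 30.9) and the other 2 fusion transcripts at 0. NUP98-JARID1A libraries held their own transcript at 60.2 to 100.3 at day 5, and every NUP98-DDX10 and NUP98-NSD1 library was at 0 for it. Set against these controls, untreated fusion libraries were higher in 6 of 10 genes and lower in 1, in the mean of the fusions (limma, adjusted p under 0.05). Of all features 31.8% were higher and 38.9% lower. By fusion, 6 of 10 genes differed from the controls in untreated NUP98-DDX10 (68.5% of all features), 10 in NUP98-JARID1A (69.4%) and 7 in NUP98-NSD1 (64.6%). Untreated libraries also entered the choice of the genes, which favours high values in them. Cd34 stood highest above the controls, by 5.23 ± 0.64 (adjusted p = 4.51e-08), followed by Tns1 (2.64 ± 0.30, 9.45e-09) and Cd28 (2.01 ± 0.33, 4.8e-06). Muc13 (1.35 ± 0.50, 0.0188), Adgrg1 (1.28 ± 0.26, 8.26e-05) and Bahcc1 (1.13 ± 0.31, 0.00181) were higher in the mean, yet the fusions differed in direction for Muc13 and Bahcc1. Muc13 was 5.15 ± 0.60 in NUP98-NSD1 and -1.56 ± 0.60 in NUP98-JARID1A, and Bahcc1 was 5.24 ± 0.36 in NUP98-JARID1A and -1.66 ± 0.36 in NUP98-DDX10. Gpr171 was lower than in the controls in the mean (-1.66 ± 0.28, adjusted p = 7.21e-06) and in each fusion. In the mean Angpt1 (-0.55 ± 0.47, 0.296), Heg1 (-0.39 ± 0.30, 0.255) and Cnn3 (-0.07 ± 0.33, 0.858) did not pass, but single fusions did. Angpt1 was higher than in the controls in NUP98-JARID1A (1.52 ± 0.55, 0.0166) and lower in NUP98-NSD1 (-2.62 ± 0.55, 0.000174). Cnn3 was lower in NUP98-JARID1A (-1.58 ± 0.39, 0.000844) and higher in NUP98-NSD1 (0.99 ± 0.39, 0.0288). Heg1 was lower in NUP98-JARID1A (-1.64 ± 0.36, 0.000216) and did not pass in NUP98-NSD1. None of them passed in NUP98-DDX10. These single-fusion comparisons include control replicate 3 and are not given without it. That replicate had 37.6 normalized counts of Angpt1, against 279 and 370.3 in replicates 1 and 2. It had 1720 of Heg1, against 688 and 746, and 1682 of Cnn3, against 478 and 533. In the mean of the fusions without control replicate 3, the Cd34 difference was 3.17, Muc13 no longer passed (0.23, adjusted p = 0.65), and Angpt1 was lower (-1.57, 0.00151). Adgrg1 (0.73), Tns1 (2.27), Cd28 (2.48), Bahcc1 (0.83) and Gpr171 (-1.51) still passed without that replicate, and Heg1 (0.03) and Cnn3 (0.51) still did not. On the reads recovered from the table, Angpt1 was lower than in the controls by edgeR (-0.97, adjusted p = 0.0114) and by DESeq2 (-1.05, 0.00999), and Muc13 did not pass by DESeq2 (0.79, 0.115).

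At day 5 of doxycycline, 7 of the 10 genes were below the controls in the mean of the fusions and 1, Cd34, was above them (37.4% and 30.4% of all features); the day 5 libraries also entered the choice of the genes. By fusion, 10 genes differed from the controls at day 5 of NUP98-JARID1A (67.3%), 7 at day 5 of NUP98-DDX10 (64.8%) and 7 at day 5 of NUP98-NSD1 (58.9%). Angpt1 was lowest relative to the controls (-5.15 ± 0.48, adjusted p = 3.83e-10), before Muc13 (-4.55 ± 0.52, 1.59e-08), Gpr171 (-3.59 ± 0.29, 1.82e-11), Cnn3 (-2.97 ± 0.34, 1.83e-08) and Heg1 (-2.61 ± 0.31, 3.44e-08). Without control replicate 3 these differences were -6.17, -5.67, -3.44, -2.39 and -2.19 in the same order. Cd34 was still 2.93 ± 0.66 above the controls (0.000351), and 0.86 without control replicate 3 (0.000207). Tns1 (-0.22 ± 0.31, 0.538) and Cd28 (-0.56 ± 0.34, 0.147) did not pass in the mean of the fusions, after having been above the controls untreated; in NUP98-JARID1A alone both were lower than in the controls at day 5 (Tns1 -1.32 ± 0.38, 0.00309; Cd28 -0.96 ± 0.42, 0.0429). Bahcc1 was below the controls in NUP98-DDX10 (-3.45 ± 0.39) and NUP98-NSD1 (-3.20 ± 0.39) and above them in NUP98-JARID1A (1.52 ± 0.39, adjusted p = 0.00113).

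**Figure D3:**
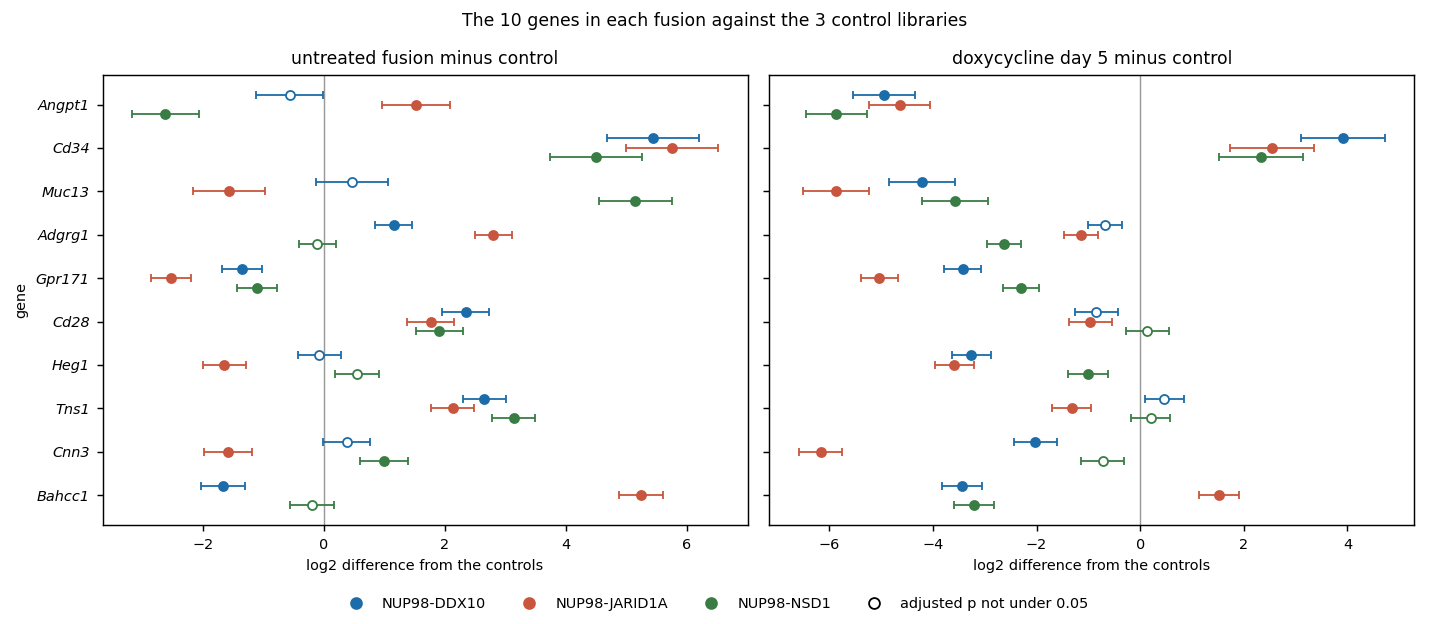
Log2 difference from the 3 controls (x axis) of each gene (y axis) in each fusion, untreated in the left panel and after 5 days of doxycycline in the right panel; bars are standard errors and open points did not pass an adjusted p of 0.05. Cd34 stays right of 0 in both panels, and Bahcc1 of NUP98-JARID1A is the only other filled point right of 0 at day 5.

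Markers of other cell types differed between these groups. The sum of 9 T cell markers was 15.02 to 245 normalized counts in the fusion libraries and 2817 to 7973 in the controls. The sum of 6 B cell markers was 999 to 2183 and 16148 to 85388, that of 9 mast cell and basophil markers 139 to 2932 and 6391 to 19629.8, that of 8 megakaryocyte markers 14.5 to 123 and 411 to 553, and that of 7 erythroid markers 7.77 to 406 and 5910.3 to 66462. In every untreated library of NUP98-DDX10 and NUP98-JARID1A, 5 of the 6 B cell markers stayed under 10 normalized counts, so a single gene gave most of that sum. In untreated NUP98-NSD1 3 markers did so. The mast cell genes Cma1 and Tpsb2, the platelet gene Gp6 and the globin genes Hba-a1 and Hbb-bs were at 0 in every fusion library. The part of these cell types in the differences of the 10 genes from the controls was not tested.

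Within the fusions, the sum of 13 endothelial markers was lower at day 5. It was 1338 to 1650.1 at day 5 and 4002 to 4835 untreated in NUP98-DDX10, 1147 to 1437 and 4312 to 5613 in NUP98-JARID1A, and 1977 to 3619 and 21912 to 23598 in NUP98-NSD1. Of 8 tested markers 4 fell at day 5, averaged over the fusions (Pecam1, Eng, Plvap and Egfl7) and 2 rose (Flt1 and Cdh5) by limma at an adjusted p under 0.05, where 23.4% of all features fell and 22.6% rose. Pecam1 alone averaged 1138 normalized counts at day 5 and 3786 untreated in NUP98-DDX10, and Eng averaged 1971 and 19111 in NUP98-NSD1. Of the 13 endothelial markers, 6 stayed under 10 normalized counts in every fusion library, among them Tek, Tie1, Emcn, Robo4 and Cldn5, at 2.15 or less. Of the 11 stromal markers 4 were tested and 2 fell, Pdgfrb (-2.85 ± 0.19) and Cxcl12 (-1.23 ± 0.51), and 7 stayed under 10 in every fusion library. The myeloid marker sum was 52619 to 148187 in the fusion libraries, and Mpo was its highest gene. The part of any of these cell types in the falls of the 10 genes was not tested.

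Heg1 and Muc13 are neighbours on chromosome 16, with 22460 bases between the end of Heg1 and the start of Muc13. Within 400000 bases on either side the table holds 9 genes, of which 8 were tested; this window was chosen after values had been seen. Itgb5, an integrin subunit gene and the next gene after Muc13, fell at day 5 in NUP98-DDX10 (-1.18 ± 0.15, limma adjusted p = 3.52e-06) and NUP98-NSD1 (-1.23 ± 0.15, 3.59e-07) and rose in NUP98-JARID1A (1.97 ± 0.15, 4.85e-11). Of all features 15.1%, 25.4% and 41.3% passed in these contrasts. The 3 effects on Itgb5 differed (F-test adjusted p = 4.04e-12). Kalrn, further along, fell in NUP98-NSD1 (-2.25, adjusted p = 1.71e-05) and NUP98-DDX10 (-1.24, 0.0159), had -0.26 in NUP98-JARID1A (0.585), and its 3 effects differed (F-test adjusted p = 0.0119). In the mean of the fusions at day 5, where 46.0% of all features passed, 4 neighbours changed with effects that did not pass that F-test. By limma Umps (-0.75, adjusted p = 1.43e-09), 1700007L15Rik (-0.64, 0.00861) and Zfp148 (-0.15, 0.0381) fell and Snx4 (0.28, 0.006) rose.

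**Figure D4:**
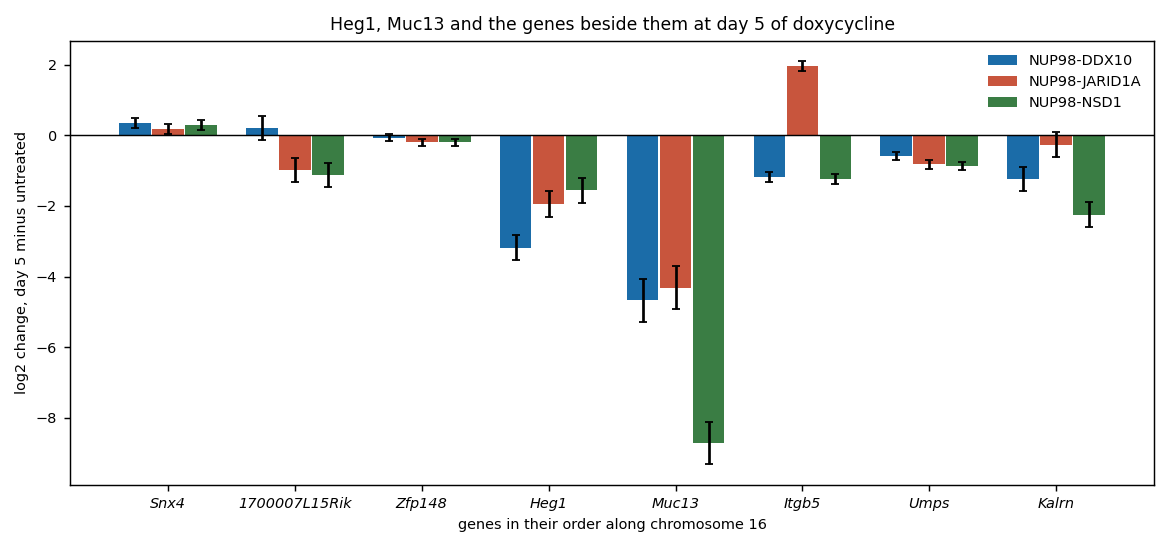
Log2 change at day 5 of doxycycline against untreated (y axis) of the 8 tested genes around Heg1 and Muc13, in their order along chromosome 16 (x axis, not to scale); bars are fitted values from 3 day 5 and 4 untreated libraries a fusion, with standard errors. Heg1 and Muc13 are lower in all 3 fusions, and Itgb5 is lower in 2 and higher in NUP98-JARID1A.

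The bases before the start of 4 of the genes are shown because these promoters differ in CG pairs, while their genes were lower together. The sequences are from RefSeq on GRCm38.p6, all on the plus strand, 5′ to 3′, and end at the last base before the annotated gene, with each CG pair in capitals. They cover up to 250 bases; the table lists the Heg1 and Bahcc1 starts inside their annotated genes, so 168 and 173 bases are shown for these, with 8 and 11 CG pairs. They are chr16:33793787-33794036 for Muc13, chr16:33684216-33684383 for Heg1, chr1:194938571-194938820 for Cd34 and chr11:120232697-120232869 for Bahcc1.
Muc13: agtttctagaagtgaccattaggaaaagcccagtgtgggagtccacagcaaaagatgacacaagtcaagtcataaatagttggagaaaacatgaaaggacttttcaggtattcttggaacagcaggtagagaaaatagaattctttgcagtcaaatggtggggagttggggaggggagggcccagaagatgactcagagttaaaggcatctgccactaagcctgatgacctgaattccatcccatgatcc
Heg1: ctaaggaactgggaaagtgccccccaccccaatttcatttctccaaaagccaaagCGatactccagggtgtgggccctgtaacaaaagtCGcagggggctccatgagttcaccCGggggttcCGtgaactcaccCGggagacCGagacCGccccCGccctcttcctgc
Cd34: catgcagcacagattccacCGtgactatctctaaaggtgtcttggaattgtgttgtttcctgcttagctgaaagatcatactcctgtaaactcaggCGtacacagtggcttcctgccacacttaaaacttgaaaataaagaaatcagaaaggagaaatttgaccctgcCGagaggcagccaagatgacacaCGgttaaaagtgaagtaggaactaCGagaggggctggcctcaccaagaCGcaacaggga
Bahcc1: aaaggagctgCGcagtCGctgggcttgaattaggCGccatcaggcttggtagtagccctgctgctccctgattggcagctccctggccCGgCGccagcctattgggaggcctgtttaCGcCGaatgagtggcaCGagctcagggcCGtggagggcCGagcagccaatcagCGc

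The whole 250 bases before the listed start, of which only part is shown for Heg1 and Bahcc1, hold 0 CG pairs for the Muc13 start shown (4 for its other start), 6 for Cd34, 19 for Bahcc1 and 21 for Heg1, with a median of 6 over the 32851 starts of the promoter table. A window with no CG pair is held by 7.87% of all starts. Tns1 (30) and Cnn3 (28) had the most, and the 2 starts of Adgrg1 had 4 each. The table matched 7 of the 10 genes, at 9 starts; those not matched were Angpt1, Cd28 and Gpr171. Searching both strands of these windows, the GC box GGGCGG was found at 3 of the 9 starts (Tns1, Cnn3 and Heg1, where 32.7% of all starts hold it). The MYB letters AACTGC were found at 1 start, of Adgrg1 (11.1%). The MEIS letters TGACAG (15.9% of all starts), the RUNX letters TGTGGT (14.05%), the ETS letters GGAAGT (19.7%), the GATA letters AGATAA (9.99%), the PBX-HOX letters TGATNNAT (7.68%) and the TATA box TATAAA (12.4%) were in none of the 9 windows. No motif holds the letters of another on either strand, and a match or its lack is a description of these windows only.

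Genes that work with the 10 were followed in lists, in the mean of the fusions at day 5, where 22.6% of all features rose and 23.4% fell (limma, adjusted p under 0.05), and the median change of all features was -0.0037. Of 10 tested genes of the angiopoietin and Tie2 pathway, 6 rose and 0 fell, with a median of 0.24. They included Flt1, a VEGF receptor gene (1.45 ± 0.14, adjusted p = 3.5e-09), Dok2, an adaptor of Tie2 (0.996 ± 0.13, 5.75e-07), the integrin subunit gene Itgb1 (0.31 ± 0.06, 6.19e-05) and the phosphatase gene Ptpn11 (0.19 ± 0.04, 0.000515). The receptor genes Tek and Tie1 were too low to test.

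Of 14 tested genes around HEG1 and the cerebral cavernous malformation complex, 9 rose and 1 fell, with a median of 0.39. Klf2 (1.29 ± 0.13, adjusted p = 7.92e-09) and Klf4 (1.71 ± 0.23, 6.36e-07), transcription factor genes downstream of the complex in endothelium, rose, as did the kinase gene Stk24 (0.39 ± 0.05, 1.19e-06) and Itgb1bp1 (0.38 ± 0.06, 3.6e-06), whose product binds KRIT1. The gene that fell was the kinase gene Map2k5 (-0.25 ± 0.06, 0.00129). Krit1, Ccm2, Rasip1 and Stk25 did not pass.

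Of 15 tested CD28 costimulation genes, 5 rose and 5 fell, with a median of 0.12. The CD28 ligand genes Cd86 (1.54 ± 0.12, adjusted p = 7.38e-11) and Cd80 (0.77 ± 0.10, 5.21e-07) were among those that rose, with Icosl (0.56 ± 0.13) and Grb2 (0.20 ± 0.05). The genes that fell were the signaling subunit Pik3r1 (-0.51 ± 0.05, 1.24e-08), Cd274 (-0.75 ± 0.18), Icos (-1.05 ± 0.28), Lck (-1.16 ± 0.35) and Grap2 (-0.86 ± 0.34). Icos and Lck were low in every fusion library, with at most 29.3 and 12.4 normalized counts.

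Of 11 tested adhesion receptors related to Adgrg1, 4 rose and 2 fell, with a median of 0.10. Adgre4 (2.21 ± 0.25, adjusted p = 3.02e-08), Adgre1, the gene of the macrophage antigen F4/80 (0.72 ± 0.08, 6.41e-08), Adgre5 (0.69 ± 0.11) and Adgrg5 (1.40 ± 0.27) rose, and Adgrg3 (-0.89 ± 0.22) and Adgrl4 (-0.93 ± 0.29) fell. Adgrl4 was detected in untreated NUP98-DDX10 (523 ± 115 normalized counts) and at a mean of 0.359 or less in each group of NUP98-JARID1A and NUP98-NSD1. Of 8 tested partners of ADGRG1, 4 rose and 1 fell. The gene that fell was Cd81 (-0.71 ± 0.09, adjusted p = 2.19e-07), a tetraspanin gene, and those that rose were Rhoa (0.33 ± 0.05), Cd9 (0.77 ± 0.21), Gnaq (0.37 ± 0.12) and Gna13 (0.13 ± 0.04).

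Around Gpr171 on chromosome 3, P2ry12 (2.39 ± 0.18, adjusted p = 2.35e-11) and P2ry1 (0.96 ± 0.13, 1.22e-06) rose and P2ry14 (-1.14 ± 0.25, 0.00047) and Med12l (-0.65 ± 0.19, 0.00687) fell, of 5 tested. Of 8 tested sialomucin and mucin genes, Spn (-0.79 ± 0.09, 4.04e-08) and Cd164 (-0.26 ± 0.09, 0.0242) fell and Cd24a (0.67 ± 0.11, 2.37e-05) rose. Of 22 tested tensin, calponin and focal adhesion genes, 12 rose and 3 fell, with a median of 0.28. Parvb (1.20 ± 0.16, 6.27e-07), the vinculin gene Vcl (1.01 ± 0.14, 1.17e-06), Ilk (0.30 ± 0.05) and Tpm3 (0.26 ± 0.05) led the rises, and Tpm2 (-1.01 ± 0.27), Parvg (-0.26 ± 0.08) and Tns3 (-0.25 ± 0.09) fell.

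Of 13 tested chromatin genes related to Bahcc1, 2 rose and 5 fell, with a median of -0.09. The corepressor gene Sap30 (0.87 ± 0.14, adjusted p = 1.18e-05) was among those that rose, and Ncor1 (-0.24 ± 0.06), Suz12 (-0.39 ± 0.11), Sin3a (-0.18 ± 0.05), Ezh2 (-0.36 ± 0.12) and Hdac3 (-0.09 ± 0.03) fell. Of 17 tested progenitor surface genes, 7 fell and 2 rose, with a median of -0.19. Cd27 fell most (-4.86 ± 0.23, 2.05e-15), then Kit (-2.48 ± 0.22, 4.49e-10) and Cd93 (-1.01 ± 0.13, 5.91e-07). Flt3 (-0.82 ± 0.23), Il3ra (-0.47 ± 0.13), Ly6a (-1.17 ± 0.37) and Cd96 (-0.73 ± 0.24) also fell, and Cd9 (0.77 ± 0.21) and Cd38 (0.84 ± 0.27) rose. Like Muc13, Cd27 was highest in untreated NUP98-NSD1, with 941 ± 121 normalized counts, against 74.00 ± 7.99 in NUP98-DDX10 and 51.3 ± 8.84 in NUP98-JARID1A (SD, n = 4 each).

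Across the 33 libraries the 10 genes did not form a single pattern. Pearson correlations of log2 values ran from -0.38 to 0.88 over the 45 pairs, with a median of 0.41. Within the 10 libraries of a fusion they ran from 0.83 to 0.99 in NUP98-DDX10, from 0.76 to 0.99 in NUP98-JARID1A and from 0.14 to 0.96 in NUP98-NSD1; the libraries of a fusion share the fall that chose the genes. The 5 other features most like the mean standardized profile of the 10 genes were Sox4 (r = 0.98, 33 libraries), Il12a (0.92), Pecam1 (0.91), Il31ra (0.90) and Car3 (0.88). Sox4, a transcription factor gene of progenitors, averaged 208, 47.5 and 10.3 normalized counts untreated, at day 3 and at day 5 in NUP98-DDX10. For single genes, the most alike feature was Pcp4l1 for Cd34 (0.96), Dido1 for Bahcc1 (0.95), Pdgfrb for Adgrg1 (0.93), Rbmx for Muc13 (0.91) and Atp2b4 for Heg1 (0.90). It was Fut8 for Angpt1 (0.88), Il31ra for Tns1 (0.89), AI504432 for Cnn3 (0.92) and Gpr171 (0.91), and Depp1 for Cd28 (0.87).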

How the data were processed

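RNA was measured in 33 libraries of the series' 35 samples; groups were taken from the titles, giving 10 groups. Per the submitters' processing notes the tools include STAR, featureCounts and DESeq2, with builds GRCm38 and mm10 and no versions; per the labels' protocols the libraries are stranded and poly-A selected by a facility, and strand use in counting is not given in the sources used here. The authors deposited 1 table of 24462 features (24454 genes by Entrez identifier and 8 constructs) as normalized counts, a signal equal to reads divided by 1 size factor per library. Dividing by the smallest value above 0 gave whole reads for 100% of values in each library, within 0.01 reads, and these reads served the count tests tried as alternatives. Symbols and positions came from RefSeq on GRCm38.p6, which matched 24376 genes; 78 had no symbol.

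The 12687 features that reached 10 in 3 or more libraries were fitted on log2(value + 1) with limma 3.58.1 (R 4.3.3), with 10 group means over all libraries and a mean-variance trend (27.3 degrees of freedom). P-values were adjusted by Benjamini-Hochberg over all 12687 features, with a threshold of 0.05. On simulated data for the day 5 contrast (11819 genes), 99% of 2-fold and 100% of 4-fold changes were recovered and 0.0947% of unchanged genes were called. The simulation gave all genes the same spread beyond counting noise, and the same mean in every group apart from the change. Only genes above a set mean were changed. These rates therefore do not describe genes of low counts or of larger spread, such as Cd34. Alternatives were a pseudocount of 5, no filter, edgeR 4.0.16 and DESeq2 1.42.0 on recovered reads, quantile normalization, each library left out, the untreated day 3 libraries left out, and a replicate block. Floors are 3 reads and cover counting error only; PCR copies are not told from molecules. Libraries of a group differed beyond counting noise (chi-square per degree of freedom 6.66 to 383).

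The 10 genes and the lists were chosen with earlier results of these data known. Named besides the 10 genes were up to 4 genes a list with the smallest adjusted p, any gene counted in a group of 5 or fewer (some list genes are not reported here), markers at 0 in all fusion libraries, the highest marker, and the features most alike by Pearson correlation. The genes beside Heg1 and Muc13, the promoter motifs and the markers near 0 were chosen after values had been seen.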

Additional observations from a re-analysis of the deposited data

Results flagged for a closer look

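By limma's interaction F-test the doxycycline effect at day 5 passed as different between the 3 fusions for 6 of the 10 genes, where 26.0% of all features passed; these contrasts chose the genes, so nothing is read from the count. The adjusted p was 0.000415 for Muc13, 0.000894 for Cnn3, 0.00209 for Adgrg1, 0.0167 for Bahcc1, 0.0194 for Angpt1 and 0.0381 for Heg1. Single libraries left out took away the calls of Heg1 (up to 0.0995), Angpt1 (up to 0.0801) and Bahcc1 (0.0605), and edgeR called 4 of the 10 genes and DESeq2 8. The shares of all features called by edgeR and DESeq2 are not given here. The 9 libraries of day 5 lay below their own untreated ones in each case, so the difference is one of size. For Muc13 and Angpt1, which ended at low counts in all 3 fusions, that size is not separate from the untreated level. In the 30 untreated groups of 4 libraries (10 genes in 3 fusions), Dixon's test found no library far from the others, where chance alone finds about 1 in 20.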

How the results depend on the processing

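The 7 of 10 genes that differed between untreated fusions and controls, the 8 that differed from controls at day 5 and the 8 that differed between untreated fusions were counted again under each alternative, and the counts stayed within 1.5 times. Leaving out each library gave 7 in each case against the controls, 8 in each case at day 5 and 7 to 9 between untreated fusions. The count of effects that differed at day 5 (6) ran from 4 to 8. The count at day 3 (0) ran from 0 to 5, was 1 with a pseudocount of 5 (Muc13, adjusted p = 0.0284) and was 1 by DESeq2 (Gpr171, 0.0274); the cause was not tested. Of all features, the day 3 effects differed for 898, for 557 without the untreated day 3 libraries and for 1856 without control replicate 3. The median log2 change of the 10 genes at day 5 was -2.80 (-2.86 to -2.72 with a library left out). Among the pathway lists 46 genes rose and 28 fell at day 5 (43 to 52 and 26 to 30 with a library left out). Same-numbered libraries of a fusion correlated in their deviations between -0.38 and 0.34. For day 5 doxycycline and untreated libraries the values were 0.10 to 0.34 in NUP98-JARID1A, 0.04 to 0.25 in NUP98-NSD1 and -0.12 to -0.005 in NUP98-DDX10. This does not settle whether the numbers pair libraries. With the title number as a replicate block the count at day 5 was 6 and at day 3 0, and no other count moved by over 1.5 times. That block was shared by all fusions, so it cannot show pairing within a fusion. Muc13 and Angpt1 had at most 14 and 13 reads in any day 5 library, which limits the precision of their log2 changes.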
